A study of Mus musculus with 4 samples.

Results

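Bifidobacterium_388775 and Adlercreutzia_404257 are 2 genera of the phylum Actinobacteriota, here followed in the stool of mice given antibiotics. They were taken from the table of taxa by genus name and summed by genus, which makes 2 of 316 genera and 4 of 488 table rows. The numbers after the genus names belong to the taxonomy used by the authors. Reads of Bifidobacterium_388775 lay in a row with no species named (379 reads) and, in 1 library, in a row named Bifidobacterium adolescentis (59 reads). Reads of Adlercreutzia_404257 lay in Adlercreutzia mucosicola (142 reads) and, in 1 library, in Adlercreutzia equolifaciens (3 reads).

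Bifidobacteria are anaerobic gram-positive bacteria that ferment plant and milk sugars to acetate and lactate. Adlercreutzia belongs to the Eggerthellaceae, a family of slow-growing anaerobic gram-positive gut bacteria, and its type species turns the soy isoflavone daidzein into equol. Vancomycin and ampicillin act on the bacterial cell wall, vancomycin on gram-positive bacteria. Metronidazole acts on anaerobes, while neomycin, an aminoglycoside, acts mainly on aerobic gram-negative bacteria. Aminoglycosides and vancomycin are poorly absorbed from the gut when swallowed.

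The mice were wild-type C57BL/6J animals of 8 to 12 weeks. Each mouse was given ampicillin, metronidazole, neomycin or vancomycin, the 4 antibiotics mixed, or only the carrier, phosphate-buffered saline (PBS). All 6 treatments were given by 3 routes: by mouth (PO), into the peritoneum (IP) or into a vein (IV). A dose held 2.5 mg of antibiotic in 100 µl of PBS, with 2 doses daily over 3 days and a last one on day 4, and the mice were euthanised 4 hours later; how much of each antibiotic the mix held is not stated. Stool was sampled at day 0 and day 4, and V4 amplicons of bacterial 16S rRNA genes were sequenced. At day 4 the groups PO, IP and IV held 5, 2 and 4 samples for ampicillin, 6, 6 and 6 for metronidazole, 4, 6 and 4 for neomycin, 6, 5 and 6 for vancomycin, 4, 3 and 6 for the mix, and 5, 5 and 6 for PBS, where 2 pairs of near-identical libraries were counted once each. Values are percent of the reads of a library. A lower percent cannot be told apart from growth of other bacteria, nor a higher percent from loss of others, since the table holds shares and no cell numbers.

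Both genera were rare. At day 4 Bifidobacterium_388775 had reads in 21 of 91 libraries and Adlercreutzia_404257 in 18 of 91, against 3 of 107 and 0 of 107 at day 0. Where it was found at day 4, Bifidobacterium_388775 made up 0.00443% to 0.379% of reads (median 0.0404%, from 2 to 75 reads), and 10 of these 21 libraries held under 10 of its reads. Adlercreutzia_404257 made up 0.00715% to 0.0608% (median 0.0155%, 3 to 17 reads), with under 10 reads in 12 of 18 libraries. The values are therefore a few reads each, and a genus at 0 can lie below a limit of 3 reads of its library. That limit, like the intervals given here, accounts for counting error alone, because reads copied by PCR are no independent molecules.

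Depth differed between the days. The median library held 23566 reads at day 4 (range 30 to 153407) and 7289 at day 0 (range 2 to 41082), which sets the 3-read limit at 0.0127% and 0.0412%. Only 10 of the 21 day 4 values of Bifidobacterium_388775 and 2 of the 18 of Adlercreutzia_404257 lie above the day 0 limit. Among libraries of at least 10000 reads, Bifidobacterium_388775 was found in 19 of 75 at day 4 and in 2 of 45 at day 0, and Adlercreutzia_404257 in 18 of 75 and 0 of 45. At day 4 the libraries with Adlercreutzia_404257 had a median of 40787 reads and those without it 20443, and for Bifidobacterium_388775 the medians were 38465 and 21132.5 reads. Detection thus moved with depth in both genera, and the part of depth in the difference between days was not tested.

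**Figure D1:**
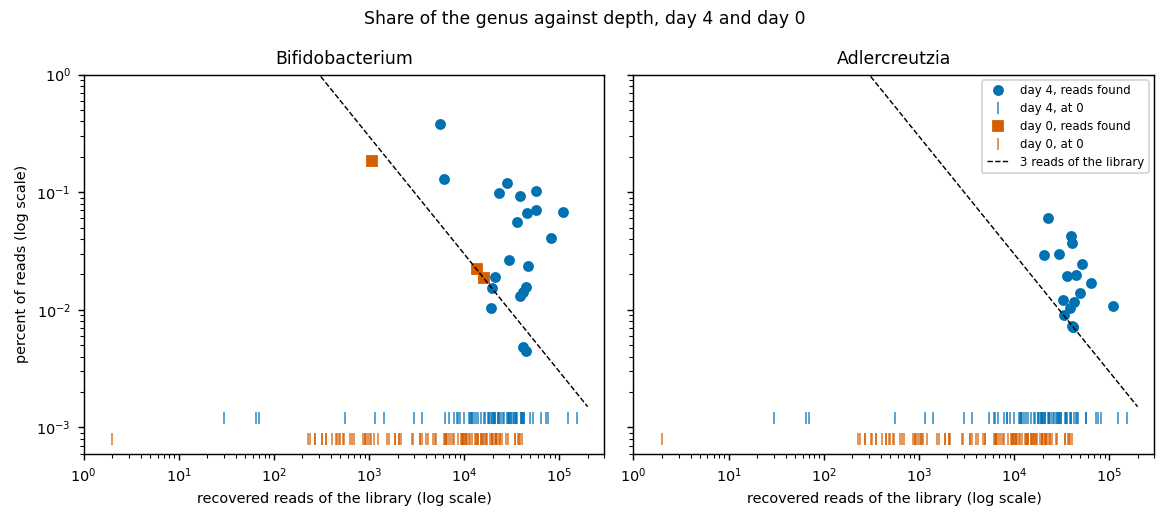
Percent of reads of Bifidobacterium_388775 (left) and Adlercreutzia_404257 (right) against the recovered reads of each library, both on log axes. Filled points are libraries with reads of the genus at day 4 (circles) and day 0 (squares), ticks along the bottom are libraries at 0, and the dashed line is 3 reads; the 18 libraries with Adlercreutzia_404257 all hold at least 10000 reads.

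Vancomycin mice had no read of either genus at day 4 by any route. This holds for 17 samples, 18 libraries and 504894 reads, so that 3 reads would be 0.000594% of the total. PBS libraries held 81 reads of Bifidobacterium_388775 and 76 of Adlercreutzia_404257 among 529957 reads, which are 0.0153% and 0.0143%. These totals are uneven over mice. Of the 81 reads, 31 came from 1 PBS IP sample and 36 from 1 PBS IV sample, and 1 vancomycin IV library held 153407 of the 504894 reads. Adlercreutzia_404257 was found in 0 of 17 vancomycin samples and 7 of 16 PBS samples (difference in share −43.8 percentage points; two-sided exact permutation of antibiotic and PBS within route, p = 0.00306, adjusted over 10 tests 0.0306). For Bifidobacterium_388775 the counts were 0 of 17 and 5 of 16 (exact permutation p = 0.0152, adjusted 0.0758, and 0.0459 with the libraries of near-identical pairs counted on their own). This test was added after the values were seen. It was run on no other genus, so whether the absence after vancomycin is particular to these genera was not tested. Many genera changed after vancomycin: 66.3% of those tested PO, 25.3% IP and 42.1% IV differed from PBS (limma adjusted p under 0.05, either direction). Median depth was 20443 reads in vancomycin samples and 37115 in PBS samples. With libraries of at least 10000 reads only, the counts for Adlercreutzia_404257 were 0 of 13 and 7 of 15 (exact permutation p = 0.00911, adjusted 0.0911).

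By mouth, the single route at which a vancomycin comparison passed the threshold (limma adjusted p under 0.05), Adlercreutzia_404257 was at 0 in 6 of 6 vancomycin samples, against 0%, 0%, 0.0104%, 0.0171% and 0.0199% in PBS samples. The groups overlap at 0. The difference on the log2(percent + 0.01) scale, on which all log2 values here are given, was −0.81 (SE 0.36, limma adjusted p = 0.0423). An exact permutation test of these samples alone gave p = 0.0606 (adjusted over the 15 comparisons of the genus, 0.455). In this comparison 66.3% of the 95 genera tested passed the threshold. The vancomycin libraries were shallow by this route, 1151 to 20443 reads against 18152 to 64482 in PBS, and their 3-read limits of 0.0147% to 0.261% reach from within the PBS values to above them. Over the 6 libraries together, 3 reads would be 0.00401%, against a PBS mean of 0.00948% ± 0.00932 (SD, n = 5). With each zero set to its limit the sign turned (log2 1.11, limma adjusted p = 0.578). The mean over all tested genera was −2.21 and the median −1.96 in this comparison, and relative to that mean Adlercreutzia_404257 lay 1.40 higher (SE 0.47, limma adjusted p = 0.0109) and Bifidobacterium_388775 1.59 higher (SE 0.66, limma adjusted p = 0.0412). A difference of −0.81 is the largest fall the scale allows here, since all vancomycin samples were at 0. For Bifidobacterium_388775 that largest fall is −0.62. Both genera thus had to lie above the mean of −2.21, so the p-values relative to it are no evidence of a rise.

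After vancomycin IP, Adlercreutzia_404257 was at 0 in 5 samples, against 0%, 0%, 0%, 0.0372% and 0.0424% in PBS samples (log2 −0.93, SE 0.38, limma adjusted p = 0.0570; 25.3% of genera passed). After vancomycin IV it was at 0 in 6 samples, against 4 PBS samples at 0 and 2 at 0.0293% and 0.0608% (log2 −0.80, SE 0.34, limma adjusted p = 0.0512; 42.1% passed). Bifidobacterium_388775 did not pass by any route of vancomycin, with log2 differences of −0.62, −0.59 and −0.56. The 3-read limits ran from 0.00744% to 0.0327% in the IP and from 0.00196% to 0.0381% in the IV libraries. Over all routes, 9 of 18 vancomycin libraries had a limit under the PBS mean of Adlercreutzia_404257 (0.0136%) and 6 of 18 under that of Bifidobacterium_388775 (0.0121%).

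Of the other 19 Actinobacteriota genera, none present in enough samples to be tested, 16 had reads in any day 4 library. No vancomycin library held a read of any of them, whereas 13 of 16 PBS libraries held reads of at least 1. The PBS reads came from 10 of the 16 genera, 149 reads in all. Vancomycin samples were shallower (median 20443 against 37115 reads in PBS), and genera of other phyla were not counted in this way. The libraries with other Actinobacteriota numbered 4 of 12 for ampicillin, 8 of 18 for metronidazole, 9 of 14 for neomycin and 7 of 13 for the mix. With both members counted in, Actinobacteriota were read in 0 of 18 vancomycin libraries and in 14 of 16 PBS libraries. The genera found most often at day 4 were an unclassified genus of the Eggerthellaceae (16 libraries), Rothia (11 libraries) and UBA9715 (9 libraries, 7 of them PBS). At day 0 only 3 of the 19 had any read.

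**Figure D2:**
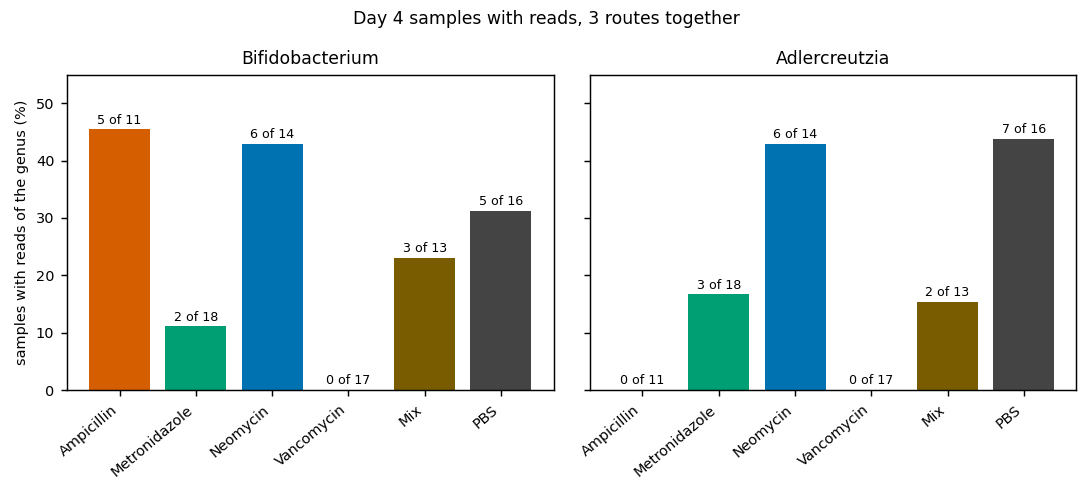
Share of day 4 samples with reads of each genus (percent, bars from 0), the 3 routes together, with the counts above the bars and PBS at the right. Vancomycin stands at 0 of 17 for both genera, and ampicillin at 5 of 11 for Bifidobacterium_388775 but 0 of 11 for Adlercreutzia_404257.

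Of 11 ampicillin samples, 5 held Bifidobacterium_388775 and 0 held Adlercreutzia_404257; for Bifidobacterium_388775, against 5 of 16 PBS samples, the exact permutation test gave p = 0.664 (adjusted over 10 tests, 0.789). By mouth Bifidobacterium_388775 stood at 0%, 0.0154%, 0.0984%, 0.119% and 0.128%, against 0%, 0%, 0.00443%, 0.0130% and 0.0157% in PBS samples. Of the ampicillin samples, 3 lay above every PBS sample, while the others overlapped with them. The mean was 0.0722% ± 0.0601 after ampicillin and 0.00662% ± 0.00733 after PBS (SD, n = 5 each). By the test across genera the share of Bifidobacterium_388775 was higher (log2 1.83, SE 0.65, limma adjusted p = 0.0132). In that comparison 55.8% of genera passed, and only 6 of the 53 that did were higher after ampicillin. Growth of Bifidobacterium_388775 and loss of other bacteria cannot be told apart here. An exact permutation test of the same difference, which rests on these samples alone, gave p = 0.0952 (adjusted over the 15 comparisons of the genus, 0.476).

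The oral ampicillin values rest on few reads and on libraries of unlike make-up. The 4 positive libraries held 3 of 19543, 34 of 28586, 8 of 6234 and 23 of 23364 reads (replicates 1, 2, 3 and 5), and the exact 95% binomial intervals (Clopper-Pearson) of the 3 high ones were 0.0824% to 0.166%, 0.0554% to 0.253% and 0.0624% to 0.148%. In replicates 3 and 5 the genus Burkholderia made up 89.0% and 96.6% of reads, and in replicate 2 it made up 0.171%. Replicate 5 and the ampicillin sample at 0 came from the second sequencing run (SB1), and all PBS PO samples from the first (ok122). Within the first run the log2 difference was 2.32 (SE 0.59, limma adjusted p = 0.00146). Without all day 4 samples over 50% Burkholderia, of which there were 4 and 3 of them had Bifidobacterium_388775, it was 1.06 (SE 0.70, limma adjusted p = 0.195). With Burkholderia taken out of the totals of all libraries, it was 3.40 (SE 0.89, limma adjusted p = 0.00183). In this group that step raises the shares of replicates 3 and 5 most, since few other reads remain in them. The larger value therefore leans on these 2 libraries and is no separate evidence of a difference.

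After ampicillin IP the 2 samples stood apart from each other: 0.379% (21 of 5534 reads, interval 0.235% to 0.579%) in one, the highest value of the series, and 0 of 35039 reads in the other, against 0% in 4 PBS samples and 0.0668% in the fifth. The log2 difference was 2.05 (SE 0.86, limma adjusted p = 0.0398), in a comparison in which 50.5% of genera passed. It rests on 1 library: without it the difference was −0.59 (limma adjusted p = 0.637), and without the other ampicillin sample, which came from the second run, 4.70. The exact permutation test gave p = 0.286. Burkholderia made up 8.49% of reads in the ampicillin IP library at 0.379% and 0.0656% in the other. After ampicillin IV all 4 samples were at 0 for Bifidobacterium_388775, against 1 of 6 PBS samples at 0.0937% (log2 −0.56, SE 0.66, limma adjusted p = 0.485; 42.1% of genera passed).

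Adlercreutzia_404257 was at 0 in all 11 ampicillin samples, of 201856 reads, where 3 reads would be 0.00149%. Against 7 of 16 PBS samples the exact permutation test gave p = 0.0238 (adjusted over 10 tests, 0.0794). Median depth was 13521 reads in ampicillin samples and 37115 in PBS samples. By route the log2 differences were −0.81 PO, −0.93 IP and −0.80 IV, with limma adjusted p of 0.0590, 0.110 and 0.0844. With the libraries of both near-identical pairs (ampicillin IV and vancomycin IP) counted on their own, the adjusted exact p was 0.0459.

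Neomycin samples held both genera in counts close to those of PBS samples: Bifidobacterium_388775 in 6 of 14 (PBS 5 of 16) and Adlercreutzia_404257 in 6 of 14 (PBS 7 of 16), with exact permutation p of 0.710 and 1. After neomycin IV, Bifidobacterium_388775 stood at 0%, 0.0235%, 0.0266% and 0.0555%, against 5 PBS samples at 0 and 1 at 0.0937% (log2 1.02, SE 0.66, limma adjusted p = 0.665). In the same group Adlercreutzia_404257 stood at 0%, 0.0194%, 0.0247% and 0.0300%, against 4 PBS samples at 0 and 2 at 0.0293% and 0.0608% (log2 0.54, SE 0.38, limma adjusted p = 0.689). After neomycin PO, Adlercreutzia_404257 was at 0 in 4 of 4 samples with limits of 0.00367% to 0.0103% (log2 −0.81, SE 0.40, limma adjusted p = 0.114), and Bifidobacterium_388775 was in 1 sample at 0.0404%. After neomycin IP, Bifidobacterium_388775 was found at 0.00480% and 0.0680%, and Adlercreutzia_404257 at 0.00720%, 0.0109% and 0.0121%, with the other samples at 0. None of the 6 neomycin comparisons passed, where 23.2% of genera passed PO, 0% IP and 1.05% IV.

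Metronidazole samples held Bifidobacterium_388775 in 2 of 18, at 0.0191% (IP) and 0.0105% (IV), and Adlercreutzia_404257 in 3 of 18, at 0.00728% (PO), 0.0118% and 0.0140% (both IV). None of the 6 comparisons passed, and the log2 differences ran from −0.93 for Adlercreutzia_404257 IP (SE 0.36, limma adjusted p = 0.144) to −0.33 for Bifidobacterium_388775 IP. Few genera moved under metronidazole at all, 4.21% PO, 2.11% IP and 2.11% IV.

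After the mix, Bifidobacterium_388775 was found once by each route, at 0.103% PO, 0.0143% IP and 0.0701% IV. The oral value was 59 of 57476 reads, all of the row named Bifidobacterium adolescentis, in a library of the second run with 96.0% Burkholderia. Adlercreutzia_404257 was found in 2 of 3 IP samples, at 0.00715% and 0.00899%, and in 0 of 4 PO and 0 of 6 IV samples. No comparison of either genus passed, while 36.8% of genera passed PO, 29.5% IP and 43.2% IV. For Adlercreutzia_404257 IV the log2 difference was −0.80 (SE 0.34, limma adjusted p = 0.0512), as it was after vancomycin IV, since both groups were all at 0 and share the PBS samples.

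**Figure D3:**
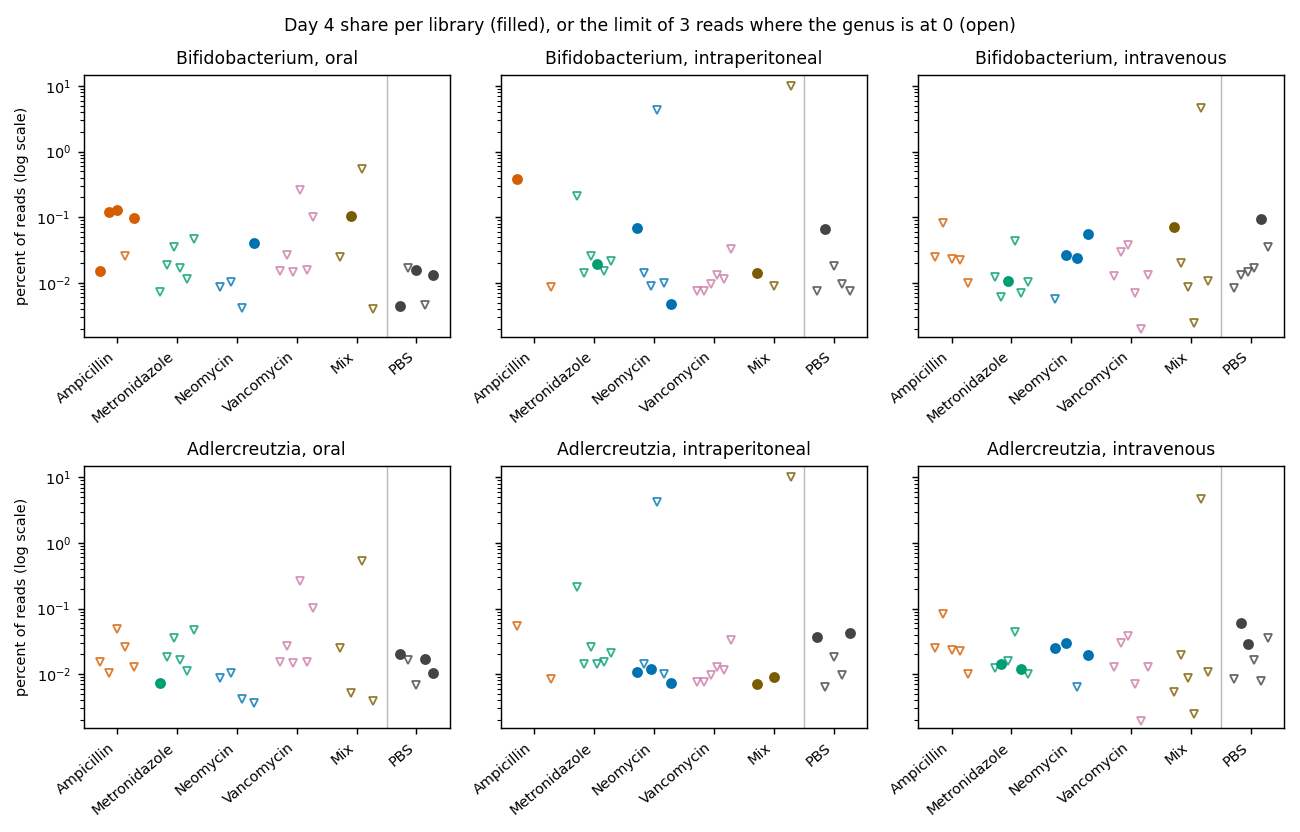
Percent of reads per day 4 library on a log axis, Bifidobacterium_388775 above and Adlercreutzia_404257 below, by route, with PBS at the right of each panel. Filled points are libraries with reads of the genus, and open triangles mark the limit of 3 reads in libraries at 0. The 3 highest oral ampicillin values of Bifidobacterium_388775, 0.0984% to 0.128%, lie above all oral PBS values, and vancomycin has open triangles only.

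The second run supplied 3 of the 6 PBS IV samples, of which 0 of 3 held Adlercreutzia_404257, against 2 of 3 in the first run. Of all day 4 libraries, Adlercreutzia_404257 was read in 0 of 12 of the second run and 18 of 79 of the first, and Bifidobacterium_388775 in 3 of 12 and 18 of 79. The runs hold different groups, and their difference was not tested. Within the first run the log2 difference from PBS IV was −1.60 after ampicillin, vancomycin and the mix alike, with limma adjusted p of 0.00524, 0.0184 and 0.00307. With run as a term it was −1.03, −0.80 and −1.03 (limma adjusted p = 0.0251, 0.0477 and 0.0136). Both refits rest on the 2 PBS IV samples with reads, 14 of 23036 and 6 of 20508, against groups all at 0. None of the 3 comparisons passed in the main fit. With the samples of both runs, the exact permutation test gave p = 0.467 after ampicillin and 0.455 after vancomycin and the mix. The share of all genera that passed in these refits is not given here. In the second run alone, with 3 vancomycin IV and 3 PBS IV samples, Adlercreutzia_404257 was at 0 in all 6 (log2 difference 0), and no other comparison had over 1 sample of both groups.

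**Figure D4:**
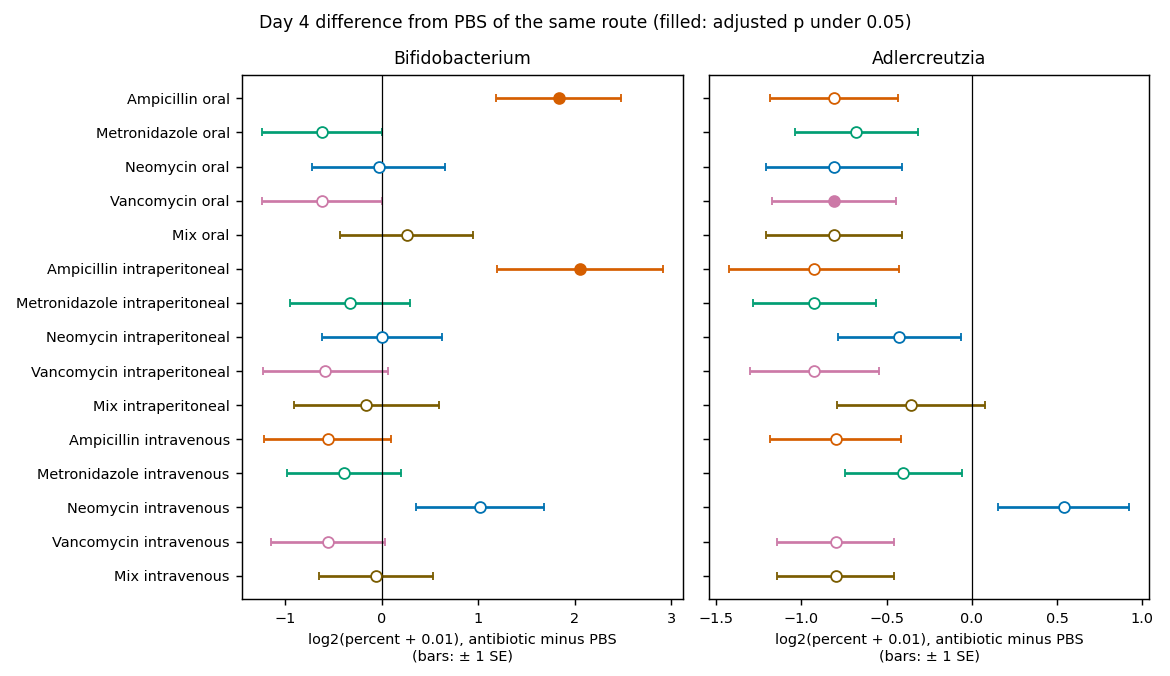
Log2(percent + 0.01) difference of each antibiotic from PBS of the same route at day 4 for Bifidobacterium_388775 (left) and Adlercreutzia_404257 (right), with bars of 1 SE from the limma fit. Filled points passed an adjusted p of 0.05: ampicillin by mouth (1.83) and IP (2.05) for Bifidobacterium_388775 and vancomycin by mouth (−0.81) for Adlercreutzia_404257.

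In order of mean share over the 18 day 4 groups, Bifidobacterium_388775 was highest after ampicillin IP (0.190% ± 0.268, SD, n = 2) and ampicillin PO, followed by neomycin IV (0.0264% ± 0.0227, SD, n = 4) and the mix PO (0.0257% ± 0.0513, SD, n = 4). PBS IV, IP and PO came at 0.0156%, 0.0134% and 0.00662%. It was at 0 in 5 groups, the 3 of vancomycin, ampicillin IV and metronidazole PO. Adlercreutzia_404257 was highest after neomycin IV (0.0185% ± 0.0131, SD, n = 4), followed by PBS IP, IV and PO at 0.0159%, 0.0150% and 0.00948%, and was at 0 in 10 groups. No gap between neighbours in either order was larger than the larger SD of the pair, in 17 pairs each.

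The difference of an antibiotic's effect between routes was tested in 15 contrasts per genus, over which 3.37% of all genus tests passed. Neither genus passed in any. The lowest adjusted p belonged to Bifidobacterium_388775 after ampicillin PO against IV (log2 difference of differences 2.40, SE 0.93, limma adjusted p = 0.0842), Adlercreutzia_404257 after neomycin PO against IV (−1.35, SE 0.56, limma adjusted p = 0.0889) and Bifidobacterium_388775 after ampicillin IV against IP (−2.62, SE 1.08, limma adjusted p = 0.114).

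Both days were read in 89 mice of like annotation. No mouse had Bifidobacterium_388775 on both days, 20 had it at day 4 only, 3 at day 0 only and 66 on neither. Of the 20, the day 4 value exceeded the 3-read limit of the mouse's own day 0 library in 6. Adlercreutzia_404257 was read at day 4 only in 18 mice, in 5 of them above the day 0 limit, and 4 of these 5 were PBS mice. PBS mice were among those with reads at day 4 only: 7 of 16 for Adlercreutzia_404257 and 5 of 16 for Bifidobacterium_388775. The 3 day 0 detections were 3 of 16172 reads (PBS IP), 2 of 1077 (PBS PO) and 3 of 13580 (vancomycin PO), and these mice had none at day 4.

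In the 5 oral ampicillin mice Bifidobacterium_388775 was at 0 at day 0, with limits from 0.0160% to 0.926%. In 1 of the 5 PBS mice it was 0% at day 4 and 0.186% at day 0, and in 3 it was read at day 4 only. The change from day 0 to day 4 differed by 2.69 between ampicillin and PBS mice (log2, SE 0.76, limma adjusted p = 0.00520; 42.1% of genera passed). It is no independent result, since all other day 0 values were 0. Only that PBS mouse, with 2 of 1077 reads at day 0, sets it apart from the day 4 difference of 1.83. Without mice that had a library under 1000 reads the difference of changes was 2.25 (SE 1.005, limma adjusted p = 0.0713), and the exact permutation test gave p = 0.0794. After ampicillin IP the difference was 2.36 (SE 1.002, limma adjusted p = 0.0721, where 21.1% of genera passed). With a pseudocount of 0.1 it was 1.03 (limma adjusted p = 0.00793). Leaving out mice under 1000 reads took out 1 of the 2 ampicillin IP mice, which had 971 reads at day 0. The resulting difference of 4.998 rests on 1 ampicillin mouse, at 0.379% on day 4. The other 28 differences within mice did not pass, where 17.8% of all genus tests over the 15 comparisons did. At day 0 none of the 30 differences between later groups passed, with a lowest limma adjusted p of 0.253, and 0.14% of all genus tests did. The 15 of Adlercreutzia_404257 could not pass, since it had no read at day 0. Nor could those of Bifidobacterium_388775 IV, where all samples were at 0. For these the day 0 test is no check of the baseline.

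The 2 genera were read together in 7 day 4 samples, 33.3% of the 21 with Bifidobacterium_388775 and 38.9% of the 18 with Adlercreutzia_404257. Over all 89 samples Adlercreutzia_404257 was in 20.2% and Bifidobacterium_388775 in 23.6%, and 57 of 89 samples had neither. Over the 18 group means at day 4 their Spearman correlation was 0.27. Among the tested genera, Streptococcus (0.66), an unclassified genus of the Christensenellales (0.58) and one of Clostridia_258483 (0.45) ran most like Bifidobacterium_388775. An unclassified genus of UBA660 (0.86), Robinsoniella (0.84) and Enterenecus (0.82) ran most like Adlercreutzia_404257. These correlations describe 18 group means whose points share libraries, depth and closed shares.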

How the data were processed

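Per the labels' protocols, V4 amplicons of fecal DNA (30 to 35 PCR cycles, 2 extraction kits, not assigned to samples) were sequenced on an Illumina MiSeq in 2 runs, with tools for read filtering and taxonomy not given in the sources used here. A signal per taxon and fecal sample was deposited by the authors, scaled to a constant total per library, with sample sheets of antibiotic, route, day and replicate. The GEO records are run files, so groups come from these sheets. Empty cells (11.6%) were read as 0. Values are whole multiples of 1 step per library (within 0.02 reads or 1e-05 of the value), which gave the reads; the smallest value was 2 reads in 183 of 198 libraries, so single reads may have been dropped, or depth is a lower limit. Depth was 2 to 153407 reads (median 13945), with 28 libraries under 1000. Replicates are mice by sample name. In 2 groups, ampicillin IV and vancomycin IP, 2 libraries differed by no more than sampling noise (chi-square p of at least 0.05) and were averaged, except in the tests within mice, where their day 0 libraries differ.

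Genus percents were tested with limma 3.58.1 (R 4.3.3) on log2(percent + 0.01), 1 fit of 89 day 4 samples in 18 groups with a variance trend, over the 95 genera found in 20% of samples or more, adjusted by Benjamini-Hochberg within a comparison. This fit lends groups at 0 the spread of the others, so its p can be far smaller than the exact permutation p, which uses only the samples compared. The 5 comparisons of a route share its PBS samples. Exact permutation tests (Python 3.11.15, numpy 2.4.6, scipy 1.17.1) were two-sided. The limma fit was checked on simulated normal values with large rises in oral vancomycin. That check does not cover small differences or falls to 0 in rare genera like these. Members, lists and tests were chosen with earlier results of these data known. Named taxa are both genera, their table rows, other Actinobacteriota, and the 3 tested genera nearest to each by Spearman correlation. Replicate numbers differed between days in 28 of 89 mice and only name samples (mean residual correlation 0.0067 for same numbers, −0.0012 for others).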

Additional observations from a re-analysis of the deposited data

Results flagged for a closer look

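A value of 1 sample far from the rest of its group was found in 12 of 21 groups with a spread, by a gap test that chance meets in about 1 of 20 groups. The day 4 groups of 2 and 3 samples, ampicillin IP and the mix IP, also had a spread but are not among the 21. In 11 of the 12 all other samples of the group were at 0, so the test marks a single detection. For Bifidobacterium_388775 at day 4 these single detections were 0.0191% (metronidazole IP), 0.0105% (metronidazole IV), 0.0404% (neomycin PO), 0.103% (mix PO), 0.0701% (mix IV), 0.0668% (PBS IP) and 0.0937% (PBS IV). Neomycin IP replicate 1 stood at 0.0680% with the next sample at 0.00480%, in the deepest library of that group (110305 reads). At day 0 the marked values of Bifidobacterium_388775 were 0.0186% (PBS IP), 0.186% (PBS PO) and 0.0221% (vancomycin PO). For Adlercreutzia_404257 the marked value was 0.00728% (metronidazole PO at day 4).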

How the results depend on the processing

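Each of the 30 day 4 differences was recomputed under the alternatives, and 3 passed as reported. Bifidobacterium_388775 after oral ampicillin stayed positive throughout but did not pass with a pseudocount of 0.001 (2.86), only the groups compared (1.83), thinning to 1000 reads (1.68), zeros at 3 reads (1.81), samples over 50% Burkholderia left out (1.06) or the exact permutation test (1.83); leaving out 1 sample gave 1.50 to 2.45, and it did not pass without ampicillin replicate 2 (limma adjusted p = 0.0508) or 3 (0.0547). After ampicillin IP it did not pass with a pseudocount of 0.001 (3.07), no filter (2.05), only the groups compared (2.05), thinning (2.20), zeros at 3 reads (1.69), the replicate block (2.02), Burkholderia taken out of the totals (2.12) or the exact permutation test (2.05); leaving out 1 sample gave −0.59 (without ampicillin replicate 1) to 4.70, and 2 of 7 such fits passed (without PBS replicate 2 or ampicillin replicate 2). Adlercreutzia_404257 after oral vancomycin did not pass with a pseudocount of 0.1 (−0.13), no filter (−0.81), thinning (−0.69), the replicate block (−0.79), samples over 50% Burkholderia left out (−0.81) or the exact permutation test (−0.81), turned with zeros at 3 reads (1.11) and was called higher as a centred log ratio (1.40), as was Bifidobacterium_388775 (1.59); leaving out 1 sample gave −1.01 to −0.62, and 2 of 11 such fits passed (without PBS replicate 2 or 3). The higher centred values after oral vancomycin follow from the largest fall the scale allows, since both genera were at 0 in all those samples. The causes of the other changes were not tested. The change of Bifidobacterium_388775 within oral ampicillin mice did not pass without mice under 1000 reads (2.25) or by the exact permutation test (2.69). The detection of Adlercreutzia_404257 after vancomycin did not pass in libraries of at least 10000 reads (−46.7 percentage points). Over all day 4 alternatives 31 fits of 8 otherwise uncalled results passed in the direction of the main fit, and 77 uncalled fits changed sign without passing. The 31 were all falls. They belonged to Adlercreutzia_404257, except Bifidobacterium_388775 after vancomycin PO with only the groups compared (−0.62, limma adjusted p = 0.0432). The higher centred log ratio of Bifidobacterium_388775 given above is not among them. With genera required in 50% of samples neither genus was tested, and with near-identical libraries kept apart Adlercreutzia_404257 was not. The replicate block changed no other call. With 2 to 6 samples a group and a few reads per library, depth limits all of these values.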
